A study of Mus musculus with 32 samples.

Results

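Cell cycle and DNA replication genes were examined in neoplastic cells sorted from mouse lung tumors in which *Lkb1* (gene symbol *Stk11*) was intact, silenced, or silenced and then restored. The 54 genes were chosen by symbol, as regulators of the G1/S transition (14 genes), DNA replication genes (17) and genes of G2/M and mitosis (23), and all 54 were present among the 53558 genes of the files. They were chosen with earlier results of these data known. Tumors were started with lentiviral Cre in mice of a mixed C57BL/6J:129 background. All groups, including the controls, were built on the *KT* line, which carries a *Rosa26LSL-tdTomato* reporter. In the *Lkb1XTR* line a gene trap in *Lkb1* is switched on by Cre and can be cut out by FLPo-ERT2, a recombinase expressed from *Rosa26* that acts only when tamoxifen is given. Neoplastic cells were sorted as tdTomato-positive and negative for CD45, CD31, F4/80 and Ter119, and RNA was sequenced in 32 libraries.

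The *KT* group (4 libraries) had wild-type *Lkb1* and received no treatment. The non-restored group (10 libraries) carried the trapped allele and combined 2 control arms, 6 libraries from mice with FLPo-ERT2 given vehicle and 4 from mice without FLPo-ERT2 given tamoxifen. The restored group (7 libraries) carried FLPo-ERT2 and was given tamoxifen. These 21 libraries were *Trp53* wild type and were collected 24 to 27 weeks after tumor initiation, following 2 weeks of vehicle or 4 mg tamoxifen doses in the trapped groups. The *Trp53*-deficient groups were non-restored (7 libraries from 4 animals, 5 vehicle and 2 tamoxifen) and restored (4 libraries, all tamoxifen). Both also carried *Trp53flox/flox*, which Cre deletes in the same cells. They were collected at 16 to 19 weeks, following 2 weeks of vehicle or 4 mg tamoxifen doses. *Trp53* status and tumor age therefore cannot be told apart. All restored animals of both backgrounds were female, while 3 non-restored, 2 *KT* and 3 *Trp53*-deficient non-restored libraries were from males. *KT* mice received a lower dose of virus, and their libraries had the lowest median depth (1766310 expected counts). By the study's own description there were fewer mice than libraries in both *Trp53* wild-type trapped groups. Libraries that share a mouse cannot be told from their titles, and p-values there measure the spread between libraries.

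A cell enters the cycle when D-type cyclins and their kinases CDK4 and CDK6 inactivate the retinoblastoma protein, which frees E2F factors to switch on the genes of DNA replication. Later, the B-MYB and FOXM1 transcription factors, with the MuvB complex, switch on the genes of G2 and mitosis, and cyclin B with CDK1 drives the cell into division. The kinase WEE1 holds CDK1 back by phosphorylation, and CDK inhibitors such as p27 hold back the earlier kinases. LKB1 is a kinase that activates AMPK and its relatives and is a tumor suppressor of the lung.

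The motifs known for the 3 phases differed in frequency between the members' promoters. Of the 54 members, 43 had a promoter entry (RefSeq, GRCm38.p6, 250 bases before to 50 after the start). These motifs were searched on both strands, the cell cycle genes homology region (CHR, TTTGAA or TTCGAA), the E2F consensus (TTTCCCGC, TTTCGCGC, TTTGCCGC or TTTGGCGC) and the CCAAT box bound by NF-Y. The CHR letters were present in 12 of 17 G2/M and mitosis promoters (70.6%), 3 of 15 DNA replication promoters (20.0%) and 1 of 11 G1/S promoters (9.09%), against 19.4% of the 27025 promoters of all genes. CCAAT was present in 14 of the 17 G2/M promoters (82.4%), against 37.9% of all, and all 12 G2/M promoters with CHR letters also held CCAAT. The E2F letters were present in 6 of 15 replication promoters (40.0%), 3 of 11 G1/S promoters (27.3%) and 1 of 17 G2/M promoters (5.88%), against 2.32% of all. These matches are descriptions of letters in a window and were not tested as binding sites.

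**Figure D1:**
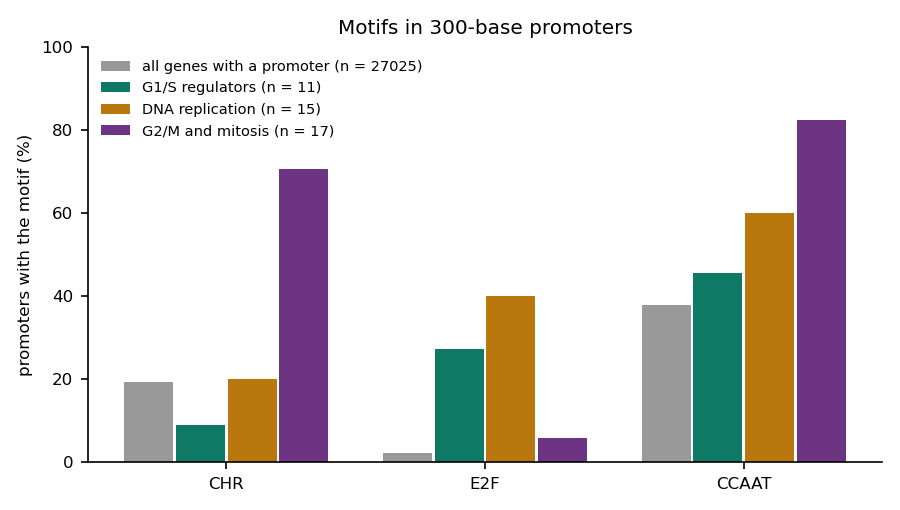
Share of 300-base promoters (y axis, percent) that held the CHR, E2F or CCAAT letters on either strand, for all genes with a promoter entry (grey) and for the members of each phase. CHR letters were in 70.6% of the G2/M promoters and E2F letters in 40.0% of the replication promoters, against 19.4% and 2.32% of all promoters.

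The following stretches, the 150 bases upstream of the start on the gene's own strand, show these motifs in capitals. *Mki67* and *Plk1* stand for the G2/M genes, *Mcm2* and *Rrm2* for replication, and *Rrm1* and *Cdk4* are shown because they differed between groups as described further on. Their positions (GRCm38.p6) were chr7:135716380-135716529 (*Mki67*, minus strand), chr7:122159285-122159434 (*Plk1*, plus), chr6:88898781-88898930 (*Mcm2*, minus), chr12:24708104-24708253 (*Rrm2*, plus), chr7:102441545-102441694 (*Rrm1*, plus) and chr10:127063385-127063534 (*Cdk4*, plus).
Mki67: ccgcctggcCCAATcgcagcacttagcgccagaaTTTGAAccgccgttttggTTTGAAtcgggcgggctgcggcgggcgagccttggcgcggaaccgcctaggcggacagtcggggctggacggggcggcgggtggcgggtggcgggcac
Plk1: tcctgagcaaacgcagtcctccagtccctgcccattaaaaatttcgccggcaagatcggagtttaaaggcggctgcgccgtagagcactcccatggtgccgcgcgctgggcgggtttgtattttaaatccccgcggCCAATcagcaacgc
Mcm2: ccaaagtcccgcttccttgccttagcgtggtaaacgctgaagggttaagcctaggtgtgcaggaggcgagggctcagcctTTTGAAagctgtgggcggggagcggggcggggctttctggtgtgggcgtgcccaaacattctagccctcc
Rrm2: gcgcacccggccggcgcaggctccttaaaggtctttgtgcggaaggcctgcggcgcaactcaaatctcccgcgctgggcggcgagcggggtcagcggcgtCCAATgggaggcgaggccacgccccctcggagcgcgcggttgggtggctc
Rrm1: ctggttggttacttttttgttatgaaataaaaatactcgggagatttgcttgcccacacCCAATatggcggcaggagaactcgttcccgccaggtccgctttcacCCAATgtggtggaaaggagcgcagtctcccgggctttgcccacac
Cdk4: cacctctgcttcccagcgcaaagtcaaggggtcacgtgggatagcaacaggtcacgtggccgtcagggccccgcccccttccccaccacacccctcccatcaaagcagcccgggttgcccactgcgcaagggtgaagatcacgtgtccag
*Mki67* held a CCAAT box 141 bases upstream and TTTGAA 116 and 98 bases upstream. *Plk1* held CCAAT within 14 bases of the start, and its CHR letters lay in the 300 bases searched but outside the printed stretch. *Mcm2* held TTTGAA 70 bases upstream. *Rrm1* held CCAAT 91 and 45 bases upstream and *Rrm2* held it 50 bases upstream, neither had E2F or CHR letters in the 300 bases, and *Cdk4* had none of the letters searched. *Mcm2* and *Rrm2* are thus not among the 6 replication promoters with E2F letters. *Mcm7*, which also differed between groups and is not printed, held the letters of all 3 motifs, and *Wee1* and *Ccnd2* had no entry.

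Levels of the members spanned a wide range and most mitotic genes were low. By median TPM (RSEM's transcript abundance, scaled for gene length to a total of 1000000 per library) over the 32 libraries, 13 members stood at 10 or more, 38 between 1 and 10 and 3 below 1. *Ccnd1*, a D-type cyclin, was the highest at 165 TPM, followed by *Pcna*, the sliding clamp of the DNA polymerases, at 78.1, *Cdk4* at 57.6, *Ccnd3* at 33.4 and *Dut*, the dUTPase, at 29.2, and the ranges of neighbours in this order overlapped. Of the 23 G2/M genes only *Wee1* reached 10 (16.4 TPM), and *Mki67*, the gene of the proliferation marker Ki-67, stood at 7.12, *Cdk1* at 4.33, *Ccnb1*, a cyclin B, at 2.44 and *Plk1*, a mitotic kinase, at 1.17. The lowest were *Ccne1* (0.88), *E2f7* (0.665) and *Mybl2*, the gene of B-MYB (0.31). 41 members had counts above 0 in every library and 13 were at 0 in at least 1, at most 8 libraries (*Mybl2*). Together the 54 genes made up 0.0446% to 0.0915% of a library's TPM. Library totals ranged from 1302482 to 5943951 expected counts, so a count of 0 allowed up to 0.505 to 2.3 CPM (3 counts of a library's total, scaled to counts per 1000000, counting error only). Median counts of 9 for *Ccnb1*, 6 for *Plk1* and 9.5 for *Cdk1* set how small a change in these genes could be seen.

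The libraries matched their labels. *Stk11* had 0 to 2 counts in the non-restored libraries of both backgrounds, against 20 to 67 in *KT*, 18 to 130 in restored and 24 to 67 in *Trp53*-deficient restored libraries. *Trp53* had 18 to 154 counts in non-restored, 1 to 19 in *Trp53*-deficient non-restored and 8 to 17 in *Trp53*-deficient restored libraries. All 10 lung epithelial markers were detected in every library, including *Nkx2-1*, *Epcam* and *Sftpc*, and their summed TPM ranged from 8721 to 111040. The lowest sums were in the *Trp53*-deficient non-restored libraries numbered 7, 1 and 2 (8721, 11252 and 11646) and in non-restored library 8 (9115). The 15 immune markers, the cells the sort removed, summed to 10.1 to 96.9 TPM in non-restored and 17.6 to 141 in restored libraries. Fibroblast markers, which the sort did not address, summed to 11.8 to 44.6 TPM in *KT*, 2.61 to 223 in non-restored, 16.5 to 157 in restored, 7.11 to 280 in *Trp53*-deficient non-restored and 1.3 to 732 in *Trp53*-deficient restored libraries. Endothelial markers summed to 3.34 to 7.1 TPM in *KT*, 2.03 to 66.5 in non-restored, 1.09 to 44.0 in restored, 3.38 to 30.0 in *Trp53*-deficient non-restored and 0.43 to 42.3 in *Trp53*-deficient restored libraries. Red cell markers summed to at most 19.0 and airway markers to between 29.1 and 1145 TPM. The part of these other cells in the results was not tested.

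Summed over each phase, the members' levels overlapped between all groups for G2/M and replication, while the G1/S sums of the *KT* libraries (254 to 299 TPM) lay below those of the *Trp53*-deficient restored libraries (348 to 373). The 23 G2/M genes summed to 81.7 to 106 TPM in *KT* (median 97.1), 36.2 to 146 in non-restored (99.3), 43.1 to 115 in restored (69.2), 58.1 to 171 in *Trp53*-deficient non-restored (109) and 65.8 to 178 in *Trp53*-deficient restored libraries (104). Within the non-restored group the 7 female libraries ran from 74.5 to 146 and the 3 male libraries from 36.2 to 97.2. The 17 replication genes summed to medians of 196, 259, 207, 254 and 241 TPM in the same order of groups, and the 14 G1/S genes to 293, 334, 257, 410 and 363. *Ccnd1*, at a median of 173 TPM in the non-restored group, was the largest term of the G1/S sum. In bulk libraries fewer cycling cells and less RNA per cycling cell cannot be told apart.

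**Figure D2:**
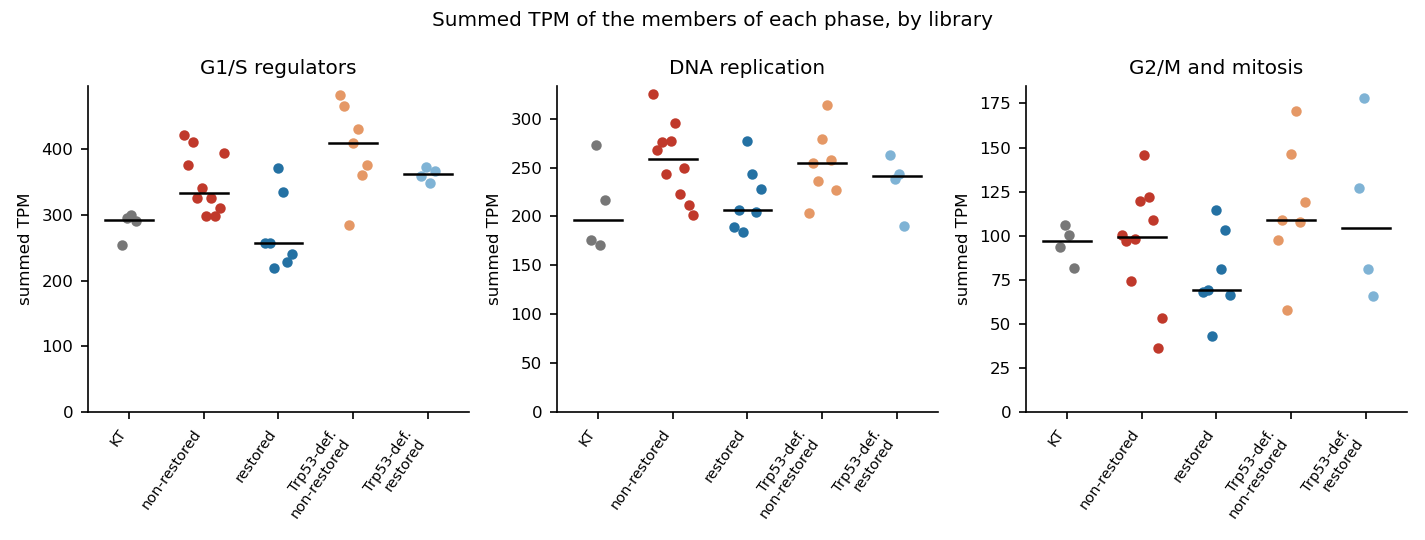
Summed TPM (y axis, from 0) of the members of each phase in each of the 32 libraries (points), with the median of each group as a black line. The G2/M sums of the restored libraries (43.1 to 115) lie within the range of the non-restored libraries (36.2 to 146).

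Restoration of *Lkb1* in *Trp53* wild-type tumors went with lower values of most mitotic genes, but 1 member passed the test, and it was higher. *Wee1* rose 2.24-fold in restored over non-restored tumors, while 18 of the 19 tested G2/M genes had log2 fold changes below 0 that did not pass. The question was what restoring *Lkb1* does to established tumors. Of the 46 members that passed the filter on low counts, 1 was called (adjusted p under 0.05, edgeR's quasi-likelihood F test, Benjamini-Hochberg over all genes), against 1.87% of the 12636 genes tested. At an unadjusted p under 0.05 there were 9 members, 7 lower and 2 higher, against 15.1% of all genes. 37 of the 46 had a log2 fold change below 0 (median -0.33), against 51.8% of all genes tested (median -0.01), and without the filter 43 of the 54 did (median -0.33). Among the 18 members with at least 10 counts in every library it was 10. Members that are expressed by the same cycling cells vary together, so these counts are not independent observations.

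*Wee1* (chr7:110122046-110143286, GRCm38) had 16.7 to 31.4 TPM in the 7 restored libraries (median 22.1), 4.69 to 17.6 in the 10 non-restored libraries (median 9.88), and 20.5, 30.0, 32.9 and 14.8 in the 4 *KT* libraries. Every restored library was above the non-restored median and 6 of 7 were above all non-restored libraries. The ranges overlapped, since restored library 1 (16.7 TPM) was below non-restored libraries 1 (17.6) and 6 (16.99). The log2 fold change was 1.17 ± 0.25 (SE, n = 7 and 10, adjusted p = 0.0164, edgeR). The tamoxifen-treated controls alone gave 1.61 (adjusted p = 0.0158) and the vehicle-treated controls alone gave 0.93, which did not pass (adjusted p = 0.117). An annotated antisense gene, *1600010M07Rik*, overlaps *Wee1*. It was listed at 0 in all *KT* libraries and in all *Trp53* wild-type non-restored libraries. It was also at 0 in all *Trp53*-deficient non-restored libraries. It stood at 0 to 1.07 TPM in restored and at 0 to 0.28 in *Trp53*-deficient restored libraries, and its part in the *Wee1* values was not tested. Of 24 tested genes within 2 Mb of *Wee1*, 1 (4.17%) also passed, against 1.87% of all genes. This was *Gm45819* (1.68, adjusted p = 0.0054, edgeR), and its relation to *Wee1* was not tested.

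The lowest log2 fold change of the G2/M genes was that of *Ccna2*, cyclin A, which acts in S phase and G2. It had 2.11 to 9.9 TPM in non-restored (median 6.71) and 0.7 to 4.79 in restored libraries (median 3.48). All 7 restored libraries were below the non-restored median. The log2 fold change was -1.0 ± 0.33 and missed the threshold (adjusted p = 0.13, edgeR). *Ccna2* passed in 1 of 28 alternatives, with same-numbered libraries as a block (-1.26, adjusted p = 0.0285, edgeR). The labels give these numbers no shared source.

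*Mki67* ranged from 1.29 to 13.2 TPM in non-restored (median 7.65) and from 1.18 to 9.78 in restored libraries (median 4.75), with 4.08, 7.89, 5.58 and 6.73 in *KT*. Its groups overlapped widely (log2 fold change -0.59 ± 0.44, adjusted p = 0.575, edgeR). *Top2a*, topoisomerase II alpha, which untangles replicated chromosomes, ran from 1.84 to 23.6 (median 10.2) in non-restored and from 1.1 to 26.1 (8.15) in restored libraries, with 7.54, 7.54, 4.54 and 7.64 in *KT*. The highest *Top2a* value was thus a restored library. *Ccnb1* ran from 0.68 to 9.98 (median 2.44) in non-restored and from 0.61 to 4.37 (1.17) in restored libraries, with 3.86, 0.51, 2.8 and 2.79 in *KT*. Non-restored library 8 and restored library 4 stood above the rest of their groups. *Cdk1* ran from 0 to 10.2 (median 4.33) and from 0.45 to 4.17 (1.71), with 6.26, 7.31, 2.46 and 4.0 in *KT*. The 0 was in non-restored library 10, where 0 counts allow up to 2.02 CPM. *Plk1* ran from 0 to 4.48 (median 1.13) in non-restored and from 0.11 to 3.06 (0.46) in restored libraries, with 0.83, 0.99, 2.46 and 2.45 in *KT*. *Foxm1*, a transcription factor of these genes, ran from 1.19 to 11.3 (median 3.04) and from 0.41 to 4.86 (1.44), with 1.88, 2.49, 1.56 and 1.63 in *KT*. The log2 fold changes of *Top2a*, *Ccnb1*, *Cdk1*, *Plk1* and *Foxm1* were -0.33, -0.84, -0.73, -0.49 and -0.19, all with adjusted p of 0.498 or more (edgeR). In each of these 5 genes the restored and non-restored libraries overlapped.

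Of the remaining G2/M members, the kinetochore motor *Cenpe* (-0.97), the spindle assembly factor *Tpx2* (-0.81), *Ccnb2* (-0.80) and the ubiquitin conjugating enzyme *Ube2c* (-0.80) had the lowest log2 fold changes, and the spindle protein *Nusap1* (-0.13) and the checkpoint kinase *Bub1* (-0.15) were nearest to 0. *Birc5*, *Bub1b*, *Cdc20*, *Cenpf* and *Kif11* lay between -0.43 and -0.25. None of these passed. *Aurka*, *Aurkb*, *Kif20a* and *Mybl2* did not pass the filter on low counts.

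**Figure D3:**
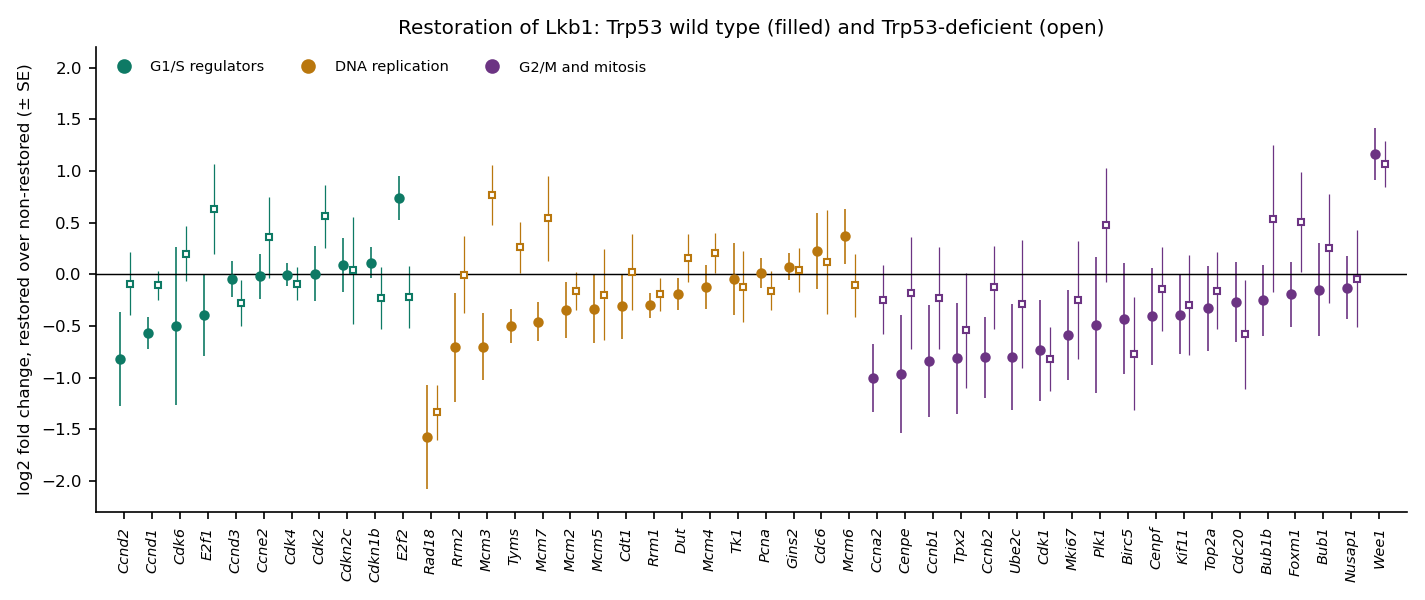
Log2 fold change of restored over non-restored tumors (y axis, ± SE) for the 46 members tested in the Trp53 wild-type fit (filled circles, 7 against 10 libraries), with the value from the Trp53-deficient fit (open squares, 4 against 4 animals) beside each. Among the G2/M genes (purple) only Wee1 lies above 0 in the Trp53 wild-type fit, at 1.17, and it lies at 1.07 in the Trp53-deficient fit.

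Among the replication genes the lowest value belonged to *Rad18*, the ubiquitin ligase that marks PCNA at damaged DNA. It had 1.94 to 22.5 TPM in non-restored (median 4.77) and 0.78 to 5.18 in restored libraries (median 2.29), and 5.42, 4.21, 5.36 and 6.68 in *KT*. Only 1 of 7 restored libraries was above the non-restored median, and the ranges overlapped. The log2 fold change of -1.57 ± 0.51 did not pass in edgeR (adjusted p = 0.125). *Rad18* passed in 2 of 28 alternatives. These were DESeq2 (-1.58, adjusted p = 0.0386) and edgeR with same-numbered libraries as a block (-1.25, adjusted p = 0.0397). The 4 libraries with the highest *Rad18* of all 32, at 27.1, 22.5, 21.2 and 20.3 TPM, were the 4 with the lowest epithelial marker sums named above. Those at 21.2 and 20.3 TPM came from 1 animal. Over the 21 *Trp53* wild-type libraries the Spearman correlation of *Rad18* with the epithelial marker sum was -0.62, a description of libraries that share group and depth, and whether this bears on the difference was not tested.

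12 of the 16 tested replication genes had values below 0 (median -0.31), and 5 of them had an unadjusted p under 0.05. Besides *Rad18* these were *Tyms*, thymidylate synthase (-0.50 ± 0.16, adjusted p = 0.127), *Rrm1*, the large subunit of ribonucleotide reductase (-0.30 ± 0.12, 0.222), and the helicase subunits *Mcm7* (-0.46 ± 0.19, 0.238) and *Mcm3* (-0.70 ± 0.32, 0.299), none of which passed in edgeR. *Tyms* had 19.7 to 42.0 TPM in non-restored and 10.2 to 25.9 in restored libraries, and 4 of 7 restored libraries were below all non-restored ones. *Rrm2*, the small subunit of ribonucleotide reductase, ran from 0.46 to 14.9 (median 4.81) and from 0.64 to 9.33 (3.1), with 1.25, 3.48, 0.74 and 3.63 in *KT*. *Mcm2* ran from 3.2 to 9.03 (median 5.05) and from 1.61 to 7.1 (4.59), with 5.26, 3.45, 2.96 and 6.28 in *KT*. *Pcna* ran from 69.5 to 121 (median 78.8) and from 63.6 to 114 (78.7), with 67.3, 117, 66.7 and 61.3 in *KT*. The *Pcna* medians of both groups were thus nearly equal, with a log2 fold change of 0.01 ± 0.14. *Mcm6* (0.37), *Cdc6*, which loads the helicase (0.22), and the helicase cofactor *Gins2* (0.08) were the others above 0. *Rrm2* (-0.71), *Mcm2* (-0.35), *Mcm5* (-0.34), the licensing factor *Cdt1* (-0.31), *Dut* (-0.19), *Mcm4* (-0.12) and thymidine kinase *Tk1* (-0.04) were below 0 without passing, and *Cdc45* was not tested.

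The G1/S regulators had values in both directions, and none passed in edgeR. *Ccnd1*, the most abundant member, had 133 to 247 TPM in non-restored (median 173) and 79.4 to 173 in restored libraries (median 91.7), with 108, 144, 121 and 140 in *KT*. 5 of 7 restored libraries were below all non-restored ones, and the other 2 lay within their range. The log2 fold change was -0.57 ± 0.16 and just missed the threshold in edgeR (adjusted p = 0.0672), and passed in DESeq2 (adjusted p = 0.017). *E2f2*, an activating E2F factor, went the other way, with 2.54 to 4.84 TPM in non-restored and 3.58 to 8.66 in restored libraries (0.74 ± 0.21, adjusted p = 0.0756, edgeR, and 0.0335 in DESeq2). *Ccnd2* had 6.14 to 47.5 (median 19.0) and 3.92 to 20.9 (12.1), and its log2 fold change of -0.82 ± 0.46 was the largest of the G1/S group and did not pass (adjusted p = 0.417). *E2f1* had 0.52 to 3.49 (median 1.34) and 0.68 to 1.75 (1.19), with 0.66, 1.96, 0.59 and 1.67 in *KT*.

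The 2 CDK inhibitors had log2 fold changes near 0. *Cdkn1b*, the gene of p27, had 12.9 to 30.4 TPM (median 18.5) and 13.7 to 32.7 (18.8), with 19.4, 14.5, 18.1 and 15.5 in *KT*, and *Cdkn2c*, the gene of p18, had 3.0 to 12.4 (8.98) and 5.24 to 11.1 (7.6), with 5.55, 11.9, 14.6 and 9.28 in *KT*. Their log2 fold changes were 0.11 ± 0.15 and 0.09 ± 0.26. *Cdk2* (0.01 ± 0.26), *Ccne2* (-0.02 ± 0.22) and *Ccnd3* (-0.04 ± 0.18) were also near 0, as was *Cdk4*, whose sign changed between alternatives. *Cdk6* (-0.50 ± 0.77) and *E2f1* (-0.39 ± 0.39) had errors as large as their values. *Ccne1*, *E2f7* and *E2f8* were not tested.

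**Figure D4:**
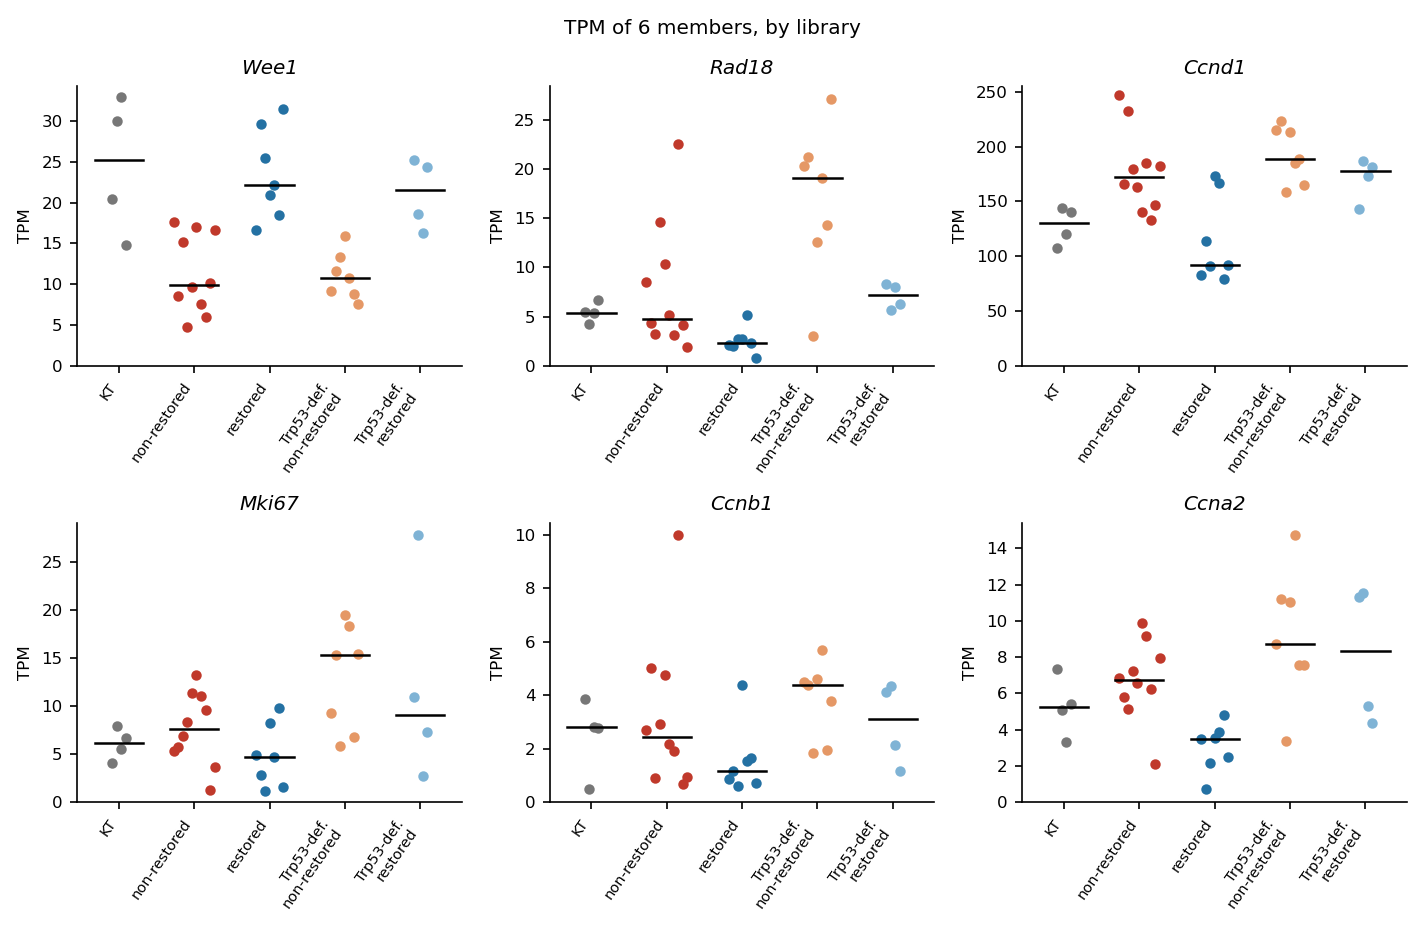
TPM (y axes, from 0) of Wee1, Rad18, Ccnd1, Mki67, Ccnb1 and Ccna2 in each of the 32 libraries (points), with the median of each group as a black line. Wee1 is at 16.7 or more in every restored library of the Trp53 wild-type background and at 17.6 or less in every non-restored one.

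Other genes of the pathway, listed apart from the members, were counted in the same way. Of 30 other G1/S genes none passed in restored over non-restored tumors by edgeR, and 19 were lower. Of 45 tested of 57 other replication genes none passed and 35 were lower (median -0.19). Of 50 tested of 74 other mitosis genes 39 were lower (median -0.25) and 1 passed. That gene was *Ncapg2*, a condensin subunit (-1.04 ± 0.26, adjusted p = 0.0342, edgeR). Of the 125 tested genes of the 3 lists 0.8% thus passed, a share below the 1.87% of all genes. Among all genes tested 51.8% were lower. In *Trp53*-deficient tumors and in the interaction none of the 3 lists had a gene that passed.

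Silencing of *Lkb1* was addressed by comparing non-restored with *KT* tumors. 5 of the 46 tested members were called, 3 higher and 2 lower in non-restored tumors, against 5.86% of the 12636 genes tested. At an unadjusted p under 0.05 there were 7 members, against 20.8% of all genes. The 2 beyond the called members were *Tyms* (0.56 ± 0.20, adjusted p = 0.111, edgeR) and *Bub1b* (-0.91 ± 0.40, 0.191). *Rrm1* (1.68-fold), *Mcm7* (1.79-fold) and *Ccnd2* (4.38-fold) rose, and *Wee1* (2.47-fold) and *Cdk4* (1.35-fold) fell. 26 of the 46 were above 0 (median 0.08), and 10 of the 19 G2/M genes were, so the mitotic genes were split between both directions. Of all genes tested 46.9% were below 0. The split of the members moved with the handling of sex. With sex as a covariate 27 of 46 members were below 0 (median -0.12), and with female libraries alone 18 of 50 were (median 0.27).

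*Rrm1* (chr7:102441695-102469771) had 6.14, 7.86, 9.72 and 8.75 TPM in *KT* and 10.5 to 17.9 in non-restored libraries (median 14.7), and the ranges did not overlap. The log2 fold change was 0.75 ± 0.15 (adjusted p = 0.00466, edgeR). *Wee1* fell by 1.3 ± 0.30 on the log2 scale (adjusted p = 0.0112), and all 10 non-restored libraries were below the *KT* median of 25.2 TPM, 6 of them below all *KT* libraries. Each of these 2 calls held in 24 of 26 alternatives. *Rrm1* lost its call with female libraries alone (0.66, adjusted p = 0.181) and with the tamoxifen-treated controls alone (0.68, 0.0552). *Wee1* lost its call without *KT* library 3 (-1.12, adjusted p = 0.068) and with the vehicle-treated controls alone (-1.05, 0.0668). Of 36 tested genes within 2 Mb of *Rrm1*, 3 (8.33%) also passed, against 5.86% of all genes. All were lower, *Trim12a* (-7.68, adjusted p = 2e-08, edgeR), *Trim34a* (-2.01, 0.00535) and *P2ry2* (-0.82, 0.0426). Within 2 Mb of *Wee1*, 2 of 24 (8.33%) passed, *Gm45819* (-1.66, 0.00886) and *Eif4g2* (0.42, 0.028). The part of these neighbours in either difference was not tested.

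*Ccnd2* (chr6:127125162-127152193) had 3.49, 1.95, 7.19 and 8.27 TPM in *KT* and 6.14 to 47.5 in non-restored libraries (log2 fold change 2.13 ± 0.62, adjusted p = 0.0467, edgeR). 9 of 10 non-restored libraries were above all *KT* libraries. The highest *Ccnd2* values, 46.5 and 47.5 TPM, were in non-restored libraries 2 and 10, which also had the highest endothelial (60.6 and 66.5 TPM) and fibroblast sums (223 and 189.6) of their group. All 5 tested endothelial markers (median log2 fold change 2.63) and all 8 fibroblast markers (1.57) were above 0 in this comparison, 0 passed by edgeR, 1 endothelial and 2 fibroblast markers had an unadjusted p under 0.05, and their part in the *Ccnd2* difference was not tested. *Gm43126*, an annotated gene on the opposite strand that overlaps *Ccnd2*, was also higher (2.09 ± 0.89, adjusted p = 0.18), and no source used here says whether counting used strand. *Mcm7* (chr5:138164583-138172422) had 8.76, 16.7, 4.78 and 8.81 TPM, at only 8 to 14 counts, in *KT* and 9.42 to 19.7 in non-restored libraries (0.84 ± 0.25, adjusted p = 0.0454). All 10 non-restored libraries were above the *KT* median, and the ranges overlapped. *Cdk4* (chr10:127063534-127067920) had 63.3, 47.5, 74.5 and 56.9 TPM in *KT* and 36.3 to 63.9 in non-restored libraries (-0.44 ± 0.13, adjusted p = 0.0457). Its ranges overlapped widely, and 3 of 10 non-restored libraries were below all *KT* libraries. *Cops6* and *Ap4m1* overlap *Mcm7*, and *Tspan31* overlaps *Cdk4*, on the opposite strand. The calls of *Ccnd2*, *Mcm7* and *Cdk4* held in 8 of 25, 7 of 25 and 8 of 26 alternatives.

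**Figure D5:**
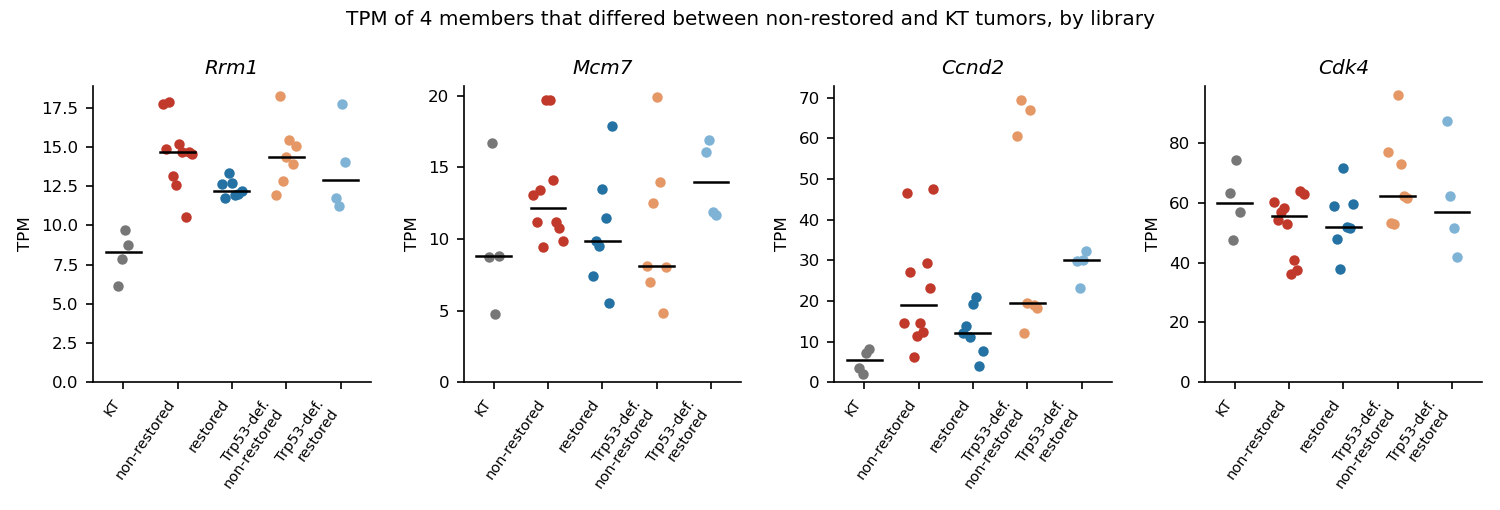
TPM (y axes, from 0) of Rrm1, Mcm7, Ccnd2 and Cdk4 in each of the 32 libraries (points), with the median of each group as a black line. Rrm1 is at 9.72 or less in the 4 KT libraries and at 10.5 or more in the non-restored libraries, while Mcm7, Ccnd2 and Cdk4 overlap between KT and non-restored libraries.

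Of 125 tested genes of the wider pathway 4 (3.2%) passed in non-restored over *KT* tumors by edgeR, a share below the 5.86% of all genes. *Cdkn1a*, the gene of the CDK inhibitor p21, was higher (1.0 ± 0.19, adjusted p = 0.00269) and so was the tubulin gene *Tubb4b* (0.45 ± 0.12, 0.0283). *Pttg1*, the gene of securin, which guards chromatid separation, was lower (-2.44 ± 0.37, 0.000365), as was *Orc6* of the origin recognition complex (-0.91 ± 0.25, 0.0322).

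Restored tumors were compared with *KT* tumors, which had *Lkb1* throughout. 0 of the 46 tested members passed in edgeR, against 0.459% of all genes tested, and 0 passed in DESeq2. 6 had an unadjusted p under 0.05, 2 higher and 4 lower, against 10.5% of all genes. 18 of the 19 G2/M genes were below 0 (median -0.43), led by *Ccnb2* and the checkpoint gene *Bub1b* (both -1.16, adjusted p = 0.399 and 0.292). In *KT* libraries *Ccnb2* had only 3 to 15 counts and *Bub1b* 10 to 18. Of all genes tested 48.5% were below 0. *Wee1*, which differed from non-restored tumors in both other groups, was at -0.14 ± 0.32 in restored over *KT* tumors. *Rrm1* was at 11.7 to 13.4 TPM in restored libraries, above all *KT* libraries, with a log2 fold change of 0.45 ± 0.16 that did not pass (adjusted p = 0.255). Of the 125 tested genes of the wider pathway 1 passed, *Pttg1* (-1.80 ± 0.40, adjusted p = 0.0416, edgeR). Both *KT* comparisons and the restoration comparison share samples, so their values are given side by side and not as independent results.

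The response to restoration was measured again in *Trp53*-deficient tumors, which share no library with the *Trp53* wild-type fit. 0 of the 50 tested members passed in edgeR with 4 animals against 4, and the percentage of all 12516 genes called was 0. 4 members had an unadjusted p under 0.05 (2 higher, 2 lower), against 5.98% of all genes, and DESeq2 called 2, *Wee1* and *Rad18*. 31 of the 50 were below 0 (median -0.11), against 46.9% of all genes. *Stk11* itself, at a log2 fold change of 5.15, did not pass in this fit (adjusted p = 0.0586, edgeR). Libraries of 1 animal were summed for the test, while the TPM values below are per library.

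*Wee1* had 25.2, 18.6, 16.2 and 24.4 TPM in the *Trp53*-deficient restored and 7.56 to 15.9 in the non-restored libraries (median 10.8), and the ranges did not overlap. Its log2 fold change was 1.07 ± 0.22 (unadjusted p = 0.00076, adjusted p = 0.804 in edgeR and 0.0284 in DESeq2), beside 1.17 ± 0.25 in *Trp53* wild-type tumors. *Rad18* had 8.28, 5.63, 8.02 and 6.3 TPM in restored and 3.05 to 27.1 in non-restored libraries (median 19.1). All 4 restored libraries were below that median, and 1 non-restored library, the third of an animal with 3, was below them. Its log2 fold change was -1.34 ± 0.27 (unadjusted p = 0.00057, adjusted p = 0.804 in edgeR and 0.015 in DESeq2), beside -1.57 ± 0.51. *Cdk1* (-0.82 ± 0.31) was the other lower and *Mcm3* (0.77 ± 0.29) the other higher member at an unadjusted p under 0.05.

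The other members were mixed in *Trp53*-deficient tumors. *Mki67* had 10.9, 27.8, 2.75 and 7.31 TPM in restored and 5.87 to 19.5 in non-restored libraries (median 15.4), so that both the highest and the lowest value were restored. *Top2a* had 11.6, 14.5, 5.83 and 4.91 against 5.18 to 18.5 (median 7.36), *Ccnb1* 4.12, 4.33, 2.12 and 1.15 against 1.85 to 5.69 (4.38), and *Cdk1* 4.93, 4.67, 4.44 and 1.75 against 3.06 to 11.3 (6.99). *Plk1* had 1.08, 4.47, 3.1 and 2.24 against 0.83 to 4.89 (1.69), and *Foxm1* 1.87, 9.76, 4.04 and 2.61 against 0.9 to 5.18 (1.38). *Ccnb1* and *Cdk1* had all 4 restored values below the non-restored median, and all 6 genes overlapped between the groups. *Ccnd1* had 143, 187, 173 and 182 against 159 to 224 (189), *Ccnd2* 29.8, 23.1, 30.2 and 32.3 against 12.0 to 69.5 (19.4), and *E2f1* 2.67, 1.14, 1.62 and 1.55 against 0.28 to 1.9 (1.12). *Cdkn1b* had 12.1, 26.0, 17.1 and 27.5 against 12.1 to 31.5 (24.7), and *Cdkn2c* 5.06, 11.6, 12.9 and 11.03 against 3.11 to 17.4 (10.1). For both inhibitors the restored values lay within the non-restored range. *Mcm2* had 6.02, 6.06, 5.75 and 6.28 against 4.71 to 9.99 (6.28), *Pcna* 77.0, 69.1, 86.8 and 53.8 against 61.7 to 102 (89.8), and *Rrm2* 4.62, 4.61, 7.2 and 2.73 against 1.29 to 8.81 (4.82). *Rrm1* had 11.8, 11.2, 17.7 and 14.1 against 11.9 to 18.3 (14.4), *Mcm7* 16.0, 16.9, 11.9 and 11.7 against 4.85 to 19.9 (8.08), and *Cdk4* 87.6, 62.4, 51.7 and 42.1 against 52.9 to 96.2 (62.2). All 6 of these replication and kinase genes overlapped between the groups.

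Side by side, 14 of the 19 G2/M genes tested in both backgrounds were below 0 in both, 1 (*Wee1*) was above 0 in both, and 4 were below 0 in *Trp53* wild-type and above 0 in *Trp53*-deficient tumors (*Plk1*, *Foxm1*, *Bub1b* and *Bub1*). Of all 12026 genes tested in both, 32.8% were below 0 in both and 33.2% above. Of the 16 replication genes 6 were below 0 in both and of the 11 G1/S genes 4 were. The difference between the 2 responses was tested as an interaction over all 4 groups. 0 of 51 tested members passed in edgeR and 0 in DESeq2, and the percentage called of all 13706 genes was 0, with 4 members at an unadjusted p under 0.05, against 3.08% of all genes. These 4 were *Mcm3* (1.43 ± 0.44), *E2f2* (-1.0 ± 0.34), *Tyms* (0.73 ± 0.28) and *Mcm7* (0.97 ± 0.40), where a positive value means a higher change in *Trp53*-deficient tumors. For *Wee1* the interaction was -0.14 ± 0.41 and for *Rad18* 0.20 ± 0.76, with errors larger than the values for both.

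*Trp53* status was compared within trapped and within restored tumors, where it goes with the earlier collection. 0 of 51 tested members passed in *Trp53*-deficient over *Trp53* wild-type non-restored tumors, against 0.584% of 13706 genes, and DESeq2 called 0. At an unadjusted p under 0.05 there were 7 members, against 17.7% of all genes. 33 of 51 were above 0 (median 0.27), among them 17 of 21 G2/M genes (median 0.48), while 51.6% of all genes were below 0. The highest among those with an unadjusted p under 0.05 were *Rad18* (1.33 ± 0.49), *Cdk1* (1.05 ± 0.46) and *Ccnb2* (1.04 ± 0.37), with adjusted p of 0.171, 0.238 and 0.155 in edgeR. *Ccnb2*, *Cdk6* and *Rad18*, 3 of 49 tested members, passed when non-restored library 8 was left out, where 1448 of all 13429 genes passed. In restored tumors 0 of 51 passed against 0.372% of all genes, and DESeq2 called 1, *Ccnb2*. At an unadjusted p under 0.05 there were 9 members, against 15.5% of all genes. 41 of 51 were above 0 (median 0.41), while 49.8% of all genes were below 0, and 19 of 21 G2/M genes were above 0 (median 0.79). *Ccnb2* had the smallest p, with 1.45 to 3.58 TPM in restored and 4.4 to 14.97 in *Trp53*-deficient restored libraries, which did not overlap (1.68 ± 0.41, adjusted p = 0.0702 in edgeR and 0.019 in DESeq2). *Ccna2* (1.18 ± 0.39), *Ccnd1* (0.57 ± 0.18) and *E2f2* (-0.71 ± 0.25) followed, with adjusted p of 0.177, 0.169 and 0.196.

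Of 142 tested genes of the wider pathway 3 passed in the non-restored (2.11%) and 2 in the restored comparison (1.41%), and *Cdkn1a* and *Ccng1*, both known as p53 targets, passed in both. *Cdkn1a* was lower in *Trp53*-deficient tumors, non-restored (-1.35 ± 0.23, adjusted p = 0.00461, edgeR) and restored (-1.62 ± 0.25, 0.000944), and so was the cyclin G gene *Ccng1* (-1.87 ± 0.25, 0.000129, and -1.83 ± 0.25, 0.00026). *Pttg1* was higher in the non-restored comparison (1.82 ± 0.42, 0.0419). None of the other replication genes passed in either comparison.

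The mitotic genes varied together from library to library within groups. Over the 21 *Trp53* wild-type libraries, after each group's mean was taken out, the median Spearman correlation of log2 CPM over the 171 pairs of tested G2/M genes was 0.43, over the 120 pairs of replication genes 0.18 and over the 55 pairs of G1/S genes -0.02, against 0 over all pairs of tested genes. The correlations that follow used the same 21 libraries without taking out group means, so differences between groups enter them. Members with the closest relation to the mean of the G2/M genes were *Mki67* (0.938), *Plk1* (0.857), *Cenpe* (0.833) and *Ccnb2* (0.826), all part of that mean. Of the other phases they were *Rad18* (0.627) and *Rrm2* (0.606). *Wee1* (-0.296), although counted in the mean, *Rrm1* (-0.31) and *Ccnd2* (-0.399) ran the other way. The G2/M sum had a Spearman correlation of 0.026 with library depth, -0.226 with the epithelial, -0.325 with the endothelial, -0.397 with the fibroblast, -0.407 with the red cell, 0.155 with the immune and 0.136 with the airway marker sum. Outside all lists, the 5 genes whose log2 CPM followed the G2/M mean most closely were *BC037034* (0.836), *Nup54* (0.83), *Alkbh1* (0.788), *Arpc1b* (0.788) and *Tmem181b-ps* (0.787). These are correlations over libraries that share groups and animals' tumors, given without a test.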

How the data were processed

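RNA from sorted neoplastic cells was sequenced in 32 libraries, and the deposited files gave 1 table per library of gene-level values. Per the labels and the study's methods, the authors aligned reads to mm10 with STAR 2.6.1d and estimated expected counts per gene with RSEM 1.2.30. They also deposited TPM, which RSEM scales by effective gene length and library size. The strand setting of the counting is not given in the sources used here. The authors' own normalized table and comparison tables (made with DESeq2 1.26.0, holding fold changes and p-values) were not used. The gene symbol, effective length, expected count and TPM were read for each library.

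From these files, expected counts were rounded to whole numbers (5.57% of values were not whole), filtered by edgeR's filterByExpr, scaled by TMM and tested with the robust quasi-likelihood F test of edgeR 4.0.16 in R 4.3.3, with Benjamini-Hochberg adjustment over all genes with calls at 0.05. One fit held the 21 libraries with wild-type Trp53, another the 8 Trp53-deficient animals and a further fit the 25 units of the 4 groups with the trapped allele. Titles assign 7 libraries of the Trp53-deficient non-restored group to 4 animals, and counts of 1 animal (3, 2, 1 and 1 libraries) were added up. DESeq2 1.42.0 was an alternative, beside other size factors, filters, length offsets, sex, control arm, a replicate block and leaving out each library. Scripts were tested on simulated data. Depth was 1302482 to 5943951 expected counts per library, and limits for counts of 0 use 3 counts and cover counting error only.

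In groups of up to 4 libraries each library's value is given, and in larger groups the lowest, median and highest, for a list of 16 members, for members that passed a test and for the member with the largest change in each phase. The members and lists were chosen with earlier results of these data known. Gene positions are from GENCODE on GRCm38 and promoters from RefSeq (GRCm38.p6), with 43 of 54 members matched. Since fewer than 4 called members had a promoter entry, fixed examples were added. Some items are not reported here.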

Additional observations from a re-analysis of the deposited data

Results flagged for a closer look

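In 110 combinations of a member and a group, the highest or lowest library or animal was set against the rest of its group. In 9 of them it stood apart from the others by more than the 95% limit of Dixon's gap test, which chance alone gives in about 1 of 20 groups. In KT tumors *Top2a* was lowest in library 3, at 4.54 TPM with the next at 7.54, and *Pcna* was highest in library 2, at 117 with the next at 67.3. In non-restored tumors library 8 was highest for *Ccnb1* (9.98 TPM, next 5.0) and for *Rrm2* (14.9, next 7.86). *Ccnb1* was also highest in restored library 4, at 4.37 TPM with the next at 1.64. In *Trp53*-deficient restored tumors *Cdk1* was lowest in library 4, at 1.75 TPM with the next at 4.44. Among the 4 *Trp53*-deficient non-restored animals, animal 2 was highest for *Foxm1* (5.02 TPM, next 1.59) and *Cdk4* (84.7, next 62.2), and animal 4 was highest for *Rad18* (27.1, next 15.9). Non-restored library 8 and *Trp53*-deficient animal 4 were the 2 libraries with the lowest epithelial marker sums, and the part of this in their values was not tested.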

How the results depend on the processing

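No result changed its direction among those called. In restored over non-restored tumors the count of 1 called member became 4 with DESeq2, 3 with the replicate block, 2 with the 2 groups alone and 0 with the vehicle arm alone, and it ranged from 1 to 3 when each library was left out (2 without non-restored library 8, 3 without restored library 4, 2 without restored library 5). In non-restored over KT tumors the count of 5 became 2 without a filter, 3 with at least 10 counts in every library, 3 with length offsets, 1 with female libraries alone, 3 with sex as a covariate, 3 with the replicate block, 3 with the 2 groups alone, 1 with the tamoxifen arm alone, 2 with the vehicle arm alone, and 2 without the 3 libraries highest in immune markers (an alternative chosen after seeing the data). Leaving out 1 library gave 1 to 4, the lowest without KT library 3. DESeq2 called 2 members in *Trp53*-deficient restored over non-restored tumors and 1 in *Trp53*-deficient over *Trp53* wild-type restored tumors, where edgeR called 0. In *Trp53*-deficient over *Trp53* wild-type non-restored tumors the count ranged from 0 to 3, with 3 only without non-restored library 8. The cause was not tested in any of these cases.

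Counts over all genes moved by more than 1.5 times as well. With DESeq2 they went from 236 to 467 (restored over non-restored), 58 to 168 (restored over KT), 0 to 23 (*Trp53*-deficient restoration), 80 to 412 and 51 to 216 (*Trp53* status in non-restored and restored tumors). Female libraries alone gave 132 in place of 741 (non-restored over KT), 10 in place of 58 and 43 in place of 80, and the tamoxifen arm alone gave 50 in place of 236 and 280 in place of 741. Without the 3 libraries highest in immune markers 236 became 89 and 58 became 32. For restored over KT, at least 10 counts in every library gave 20 and sex as a covariate 22. Taking each *Trp53*-deficient library as its own unit gave 465 in place of 80, and the fit without a filter gave 3 in place of 0 for *Trp53*-deficient restoration. Leaving out 1 library gave, for restored over non-restored, 157, 155 and 145 in place of 236 (restored 1, 2 and 7), for non-restored over KT 340, 418 and 459 in place of 741 (KT 1, 3 and 4), for restored over KT 21, 22 and 37 in place of 58 (KT 1, KT 4 and restored 1), and 25 in place of 51 without *Trp53*-deficient restored library 3. For *Trp53* status in non-restored tumors it gave 1448 without non-restored library 8, 301 without library 4, 162 without *Trp53*-deficient animal 2, and 26 to 50 in place of 80 without non-restored 1, 2, 3, 6, 7, 9 or 10 or *Trp53*-deficient animal 1, 3 or 4.

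The labels give replicate numbers no shared source, and not every pair deviated together. Of 15 pairs of same-numbered libraries 6 had a correlation of deviations over 0.1 (range -0.0547 to 0.501), 5 of them among the 7 pairs of non-restored and restored libraries (0.0478 to 0.501), and in 6 of 30 checks a library was closest to its own number. With this block the counts of called members were 3 and 3 in place of 1 and 5. In restored over non-restored tumors *Ccna2* (-1.26, adjusted p = 0.0285, edgeR) and *Rad18* (-1.25, 0.0397) were called beside *Wee1* (1.21, 0.0262). In non-restored over KT tumors *Rrm1*, *Wee1* and *Tyms* (0.81, adjusted p = 0.0439) were called.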
